A study of Mus musculus with 4 samples.

Results

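Satellite cells are the stem cells of skeletal muscle, and the genes described here mark them or drive their progeny towards fibres. The members are Pax7, Myf5, Myod1, Myog, Myf6, Cdh15, Megf10, Calcr and Notch3, chosen by name and matched to the deposited Ensembl gene IDs, 9 genes of 40137 gene units in the tables. The groups compared are 3 libraries from mice aged 28 months and 1 library from mice aged 18 months. All are thigh skeletal muscle of wild-type males of the inbred strain C57BL/6J, and the labels name no treatment. The sequencing was planned as a check on alternative splicing measured with exon arrays in the same samples. The labels do not say whether the 28-month libraries came from separate animals, so p-values measure the spread between these samples, which may be technical. Whole muscle was sequenced, so fewer cells of a type and less RNA per cell cannot be told apart.

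A resting satellite cell lies between the fibre and its basement membrane and is defined by the transcription factor Pax7. After injury it divides, and a chain of related basic helix-loop-helix factors takes over: Myf5 and Myod1 commit the cell to muscle, Myog drives its exit from division and its fusion, and Myf6 (also called Mrf4) is the member that adult fibres themselves express most. Notch and calcitonin receptors hold satellite cells at rest in mice, Megf10 is a surface receptor that acts on their division, and Cdh15 encodes M-cadherin, the adhesion protein between satellite cell and fibre.

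The 4 myogenic factors are paralogues, so their sequences were compared to see how far a read could be shared between them. The windows below run from the longest stretch Myod1 shares with Myf5 to the end of the longest it shares with Myog, in the DNA-binding and dimerization region, read 5′ to 3′ from the GENCODE M21 transcripts. Capitals mark the 31 of 60 bases that are identical in all 4 genes.
Myf5: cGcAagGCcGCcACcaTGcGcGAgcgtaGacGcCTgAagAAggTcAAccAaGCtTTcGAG
Myod1: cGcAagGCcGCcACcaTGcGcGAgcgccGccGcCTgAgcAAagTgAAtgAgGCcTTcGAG
Myog: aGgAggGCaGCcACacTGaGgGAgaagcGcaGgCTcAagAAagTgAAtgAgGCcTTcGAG
Myf6: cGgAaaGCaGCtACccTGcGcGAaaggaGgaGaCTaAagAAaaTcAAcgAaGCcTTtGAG
On GRCm38 these lie in the 5′ exon of each gene, at chr10:107485620-107485679 on the minus strand for Myf5, chr7:46377003-46377062 on the plus strand for Myod1, chr1:134290302-134290361 on the plus strand for Myog and chr10:107494363-107494422 on the minus strand for Myf6. Myf5 matched Myod1 at 49 of the 60 bases, Myog at 44 and Myf6 at 40. The longest identical run between any pair of the full transcripts was 26 bases, between Myf5 and Myod1, followed by 21 bases between Myod1 and Myog, and no other pair shared more than 14. The read length was not given in the sources used here.

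Promoter windows, from 250 bases before to 50 after the RefSeq start on GRCm38.p6, were held for 6 of the 9 members. Those of Myog and Cdh15 are shown because these genes had the smallest p of the family, in opposite directions. Capitals mark the E-box CANNTG, the motif that myogenic factors bind, which reads the same on both strands.
Myog: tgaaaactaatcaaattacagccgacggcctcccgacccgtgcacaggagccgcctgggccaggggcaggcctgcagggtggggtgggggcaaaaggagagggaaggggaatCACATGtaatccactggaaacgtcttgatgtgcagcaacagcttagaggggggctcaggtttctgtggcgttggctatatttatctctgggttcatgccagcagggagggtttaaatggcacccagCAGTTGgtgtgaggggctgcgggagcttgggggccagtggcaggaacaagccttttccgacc
Cdh15: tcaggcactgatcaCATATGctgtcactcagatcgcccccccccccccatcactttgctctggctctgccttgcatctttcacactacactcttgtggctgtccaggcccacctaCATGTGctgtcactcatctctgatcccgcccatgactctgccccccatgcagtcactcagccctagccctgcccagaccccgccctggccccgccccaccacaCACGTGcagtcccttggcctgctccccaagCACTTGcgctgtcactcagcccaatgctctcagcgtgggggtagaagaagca
The Myog window (chr1:134289754-134290053, plus strand) held 2 such letter strings and the Cdh15 window (chr8:122848124-122848423, plus strand) held 4. In GENCODE M21 the whole Cdh15 window lies within the first exon of the gene (122847966 to 122848529), not before its start. The windows of Pax7, Myf5 and Notch3 held 0, and the 2 windows of Calcr held 0 and 1. Of all 32851 promoter windows 72.3% held at least 1, with a median of 1. The form CAGCTG, a subset of the same motif, was absent from all of these windows and present in 16.3% of all windows.

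Totals were 67279205 to 76163175 counts in the 28-month libraries and 65780464 in the 18-month library. The TMM factor, which corrects for library composition, was 0.877, 1.28 and 0.897 in 28-month replicates 1, 2 and 3 and 0.990 at 18 months. Replicate 2 stood apart: across tested genes, which are not independent replicates, its log2 CPM (CPM being counts scaled to library size) correlated at r = 0.960 with replicate 1 and 0.961 with replicate 3, while these correlated at 0.989 with each other and the 18-month library at 0.970 to 0.975 with all of them. Counts were also spread differently along genes. The bin nearest the 3′ end, a bin being a piece of exon between annotated boundaries, took a median of 14.4, 13.2 and 14.2% of a gene's counts at 28 months (replicates 1, 2 and 3), against 21.7% at 18 months, over 13346 genes. Results below are therefore also given without replicate 2 and with the 3′-most bin set apart. The fit without replicate 2 takes its spread from replicates 1 and 3 alone, the pair that correlated at 0.989, which limits its calls. Fits of the 3′-most bin, or of all other bins, were scaled to those bins alone. Their differences are therefore not parts of the whole-gene difference.

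None of the 9 genes passed the adjusted threshold for a difference between the ages. Myog stood lower and Cdh15 higher at 28 months in estimate, Myod1 and Myf6 were close to equal, and the resting-cell genes Pax7, Calcr and Megf10 had few counts and wide intervals. All 9 reached a mean of 10 counts over the 4 libraries and were tested. The edgeR quasi-likelihood test called 0 of the 9 at a Benjamini-Hochberg adjusted p under 0.05, beside 0 of all 15376 genes tested (0%). At an unadjusted p under 0.05 it had 0 of the 9 and 753 of all genes (4.90%), and the DESeq2 Wald test called 0 of the 9 and 31 of all genes (0.202%). The median log2 difference of the 9, 28 months minus 18 months, was 0.05, against 0.06 for all tested genes. Of the 9, 5 were positive and 4 negative, beside 54.4% positive of all tested genes. Without 28-month replicate 2 the median was -0.22, and 1 of the 9, Cdh15, was called, beside 11.7% of all genes. Without replicate 1 or replicate 3 none of the 9 was called, beside 0.0130% and 0.00650% of all genes.

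**Figure D1:**
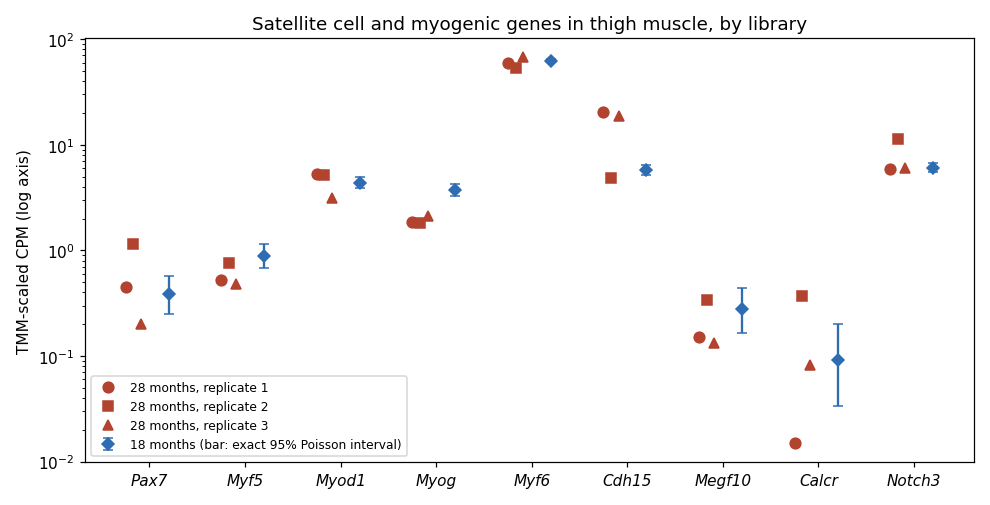
Level of each gene in each library, in TMM-scaled CPM on a log axis. Red symbols are the 28-month replicates and the blue diamond is the 18-month library with its exact 95% Poisson interval, which covers counting error only. Myog and Myf5 are the genes whose 18-month value lies above all 28-month values.

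Measured per kilobase of exon, Myf6 was far the most abundant. It stood at 47.6 ± 5.76 CPM per kb at 28 months (SD, n = 3) and 49.5 at 18 months, above 94.8% of tested genes at 28 months. Next at 28 months came Cdh15 (4.51 ± 2.62 CPM per kb), Myod1 (2.44 ± 0.660), Myog (1.29 ± 0.109) and Notch3 (0.960 ± 0.377). The rare genes followed, with Myf5 at 0.282 ± 0.0719, Pax7 at 0.103 ± 0.0850, Calcr at 0.0398 ± 0.0480 and Megf10 at 0.0268 ± 0.0148 CPM per kb. The 28-month ranges of Cdh15 and Myod1 overlapped, as did those of Myog and Notch3 and those of Pax7, Calcr and Megf10. Myf6 lay clear of all others, Myod1 clear of Myog, and Myf5 clear of its neighbours on either side. At 18 months the order differed at the second to the fourth place, where Myog had 2.49, Myod1 2.36 and Cdh15 1.77 CPM per kb, and at the last places, where Megf10 had 0.0358 and Calcr 0.0236.

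Pax7, the defining satellite cell factor (ENSMUSG00000028736, GRCm38 chromosome 4, 139737062 to 139833528), drew 30, 113 and 12 counts in the 28-month libraries (replicates 1, 2 and 3) and 25 in the 18-month library. After scaling these were 0.449, 1.16 and 0.199 CPM at 28 months, against 0.384 CPM at 18 months (exact 95% Poisson interval 0.248 to 0.567). The 18-month value lay inside the 28-month range, and the 28-month libraries differed among themselves more than the age means did. The log2 difference was 0.66 ± 1.11 (SE; 95% interval -2.17 to 3.49; edgeR adjusted p 0.930), and it turned to -0.22 without replicate 2. Of the 12 Pax7 bins, 4 had 0 counts in all 4 libraries. Bin 1, the 3614 bases at the 3′ end, held 23, 87 and 11 counts at 28 months, against 19 at 18 months. Little of the coding part of Pax7 was therefore seen at this depth.

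The calcitonin receptor gene Calcr (ENSMUSG00000023964, chromosome 6, 3685680 to 3764714), which marks resting satellite cells in mice, had 1, 36 and 5 counts in the 28-month libraries and 6 at 18 months. It passed the count minimum through replicate 2, and 13 of its 23 bins were at 0 in every library. Its log2 difference of 0.79 ± 1.67 (SE; 95% interval -3.45 to 5.04) was -0.89 without that replicate. Megf10, the receptor that acts on satellite cell division (ENSMUSG00000024593, chromosome 18, 57133090 to 57297467), had 10, 33 and 8 counts at 28 months, against 18 counts at 18 months. All of the counts of replicates 1 and 3 and of the 18-month library, and 28 of 33 in replicate 2, fell in the 3′-most of its 27 bins. The log2 difference was -0.40 ± 0.86 (SE; 95% interval -2.57 to 1.78). For these 3 genes the interval of the difference spans several-fold changes in either direction, and the 28-month libraries of Pax7 and Calcr alone lie that far apart.

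Notch3, a Notch receptor of satellite cells that vascular mural cells also make (ENSMUSG00000038146, chromosome 17, 32120820 to 32166852), drew 398, 1101 and 365 counts in the 28-month libraries (replicates 1, 2 and 3) and 395 in the 18-month library. Scaled, it stood at 5.96, 11.3 and 6.05 CPM at 28 months, against 6.07 CPM at 18 months (exact 95% interval 5.48 to 6.69). Replicates 1 and 3 thus sat at the 18-month level and replicate 2 above it. Between the ages the log2 difference was 0.36 ± 0.49 (SE; edgeR adjusted p 0.912), and 0.01 without replicate 2. An annotated antisense gene, Gm17276, overlaps Notch3. Overlap of their exons was not examined, and the strand setting of the counting was not given. Whether reads of the pair were kept apart is therefore not known.

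Pax7, Megf10, Calcr and Notch3 all had their highest level in 28-month replicate 2. So did some marker lists of other cell types, but not all. The macrophage list given below summed highest in replicate 3, and the Schwann cell list summed lowest in replicate 2. The 10 listed genes of fibro-adipogenic progenitors, the connective tissue cells of muscle, summed at 28 months to 2418, 6684 and 3165 CPM and at 18 months to 3078 CPM. The 10 listed endothelial genes summed to 289, 522 and 334 CPM at 28 months, against 337 at 18 months. All genes of both lists were detected and tested, with median log2 differences of -0.02 and 0.20. Of mural cell genes, the pericyte receptor gene Pdgfrb had 9.55, 23.3 and 12.0 CPM at 28 months, against 13.8 at 18 months. Rgs5, a pericyte regulator of G protein signalling, had 88.1, 182 and 94.7 CPM at 28 months, against 195 at 18 months. Acta2, the actin of smooth muscle, had 86.4, 89.5 and 76.8 CPM at 28 months, against 76.8 at 18 months. The whole smooth muscle and pericyte list (13 genes, all tested, median log2 difference 0.11) summed to 6274, 2406 and 6557 CPM at 28 months, against 3712 at 18 months. Most of that sum was Des, a filament protein also made by fibres, singled out after its values were seen, at 5693, 1610 and 5952 CPM and 3032 CPM. Without replicate 2 the edgeR fit called Lum, Col1a1 and Col3a1, matrix genes of the progenitor list, and Rgs5 lower at 28 months and the endothelial gene Egfl7 and Des higher (4.35% and 7.39% of all genes). Egfl7 was counted in a unit joined with other genes, so its value is not of that gene alone. Without replicate 2 the endothelial list had a median log2 difference of -0.08. The part of these cell types in the levels of the satellite cell genes was not tested.

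Myf5, the early commitment factor (ENSMUSG00000000435, chromosome 10, 107482908 to 107486134), drew 35, 74 and 29 counts in the 28-month libraries (replicates 1, 2 and 3) and 58 in the 18-month library. The levels were 0.524, 0.759 and 0.480 CPM at 28 months, against 0.891 CPM at 18 months (exact 95% interval 0.676 to 1.15). The groups did not overlap, with 18 months on top, a position that 26.4% of all tested genes shared. The log2 difference was -0.59 ± 0.60 (SE; 95% interval -2.12 to 0.93; edgeR adjusted p 0.891). Outside the 3′-most bin Myf5 had 11, 21 and 8 counts at 28 months, against 8 at 18 months, and without that bin the difference turned to 0.23.

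Myod1, the master factor of muscle commitment (ENSMUSG00000009471, chromosome 7, 46376474 to 46379099), had 355, 507 and 189 counts in the 28-month libraries and 286 in the 18-month library. It stood at 5.32, 5.20 and 3.13 CPM at 28 months, against 4.39 CPM at 18 months (exact 95% interval 3.90 to 4.93). The 18-month value lay inside the 28-month range. Its log2 difference was 0.05 ± 0.44 (SE; 95% interval -1.08 to 1.18; edgeR adjusted p 0.984).

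Myog, which drives differentiation and is induced in fibres that lose their nerve (ENSMUSG00000026459, chromosome 1, 134289989 to 134292548), drew 125, 177 and 128 counts in the 28-month libraries (replicates 1, 2 and 3) and 242 in the 18-month library. That gave 1.87, 1.81 and 2.12 CPM at 28 months, against 3.72 CPM at 18 months (exact 95% interval 3.26 to 4.21). The 3 values at 28 months lay close together, and each was below the 18-month interval. In 26.4% of all tested genes the 18-month value was above all 28-month values. The log2 difference was -0.94 ± 0.39 (SE; 95% interval -1.94 to 0.06), with an unadjusted p of 0.0602 and an edgeR adjusted p of 0.859, so it missed the threshold. It was the smallest p of the family, and the estimate stayed between -1.01 and -0.87 when each 28-month library was left out.

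Much of that difference lay in the last exon. The 3′-most bin of Myog (chromosome 1, 134291674 to 134292548, 875 bases, the end of the coding part and the 3′ untranslated region) had 71, 141 and 73 counts at 28 months, against 189 at 18 months. The other exons together had 54, 36 and 55 counts at 28 months, against 53 at 18 months. The fits that follow were each scaled to their own bins, so their values are not parts of the whole-gene difference. With the 3′-most bin left out of every gene the log2 difference of Myog was -0.49 (edgeR adjusted p 0.921), and with that bin alone it was -0.69 (0.998). Set against Myod1 in the same library, which needs no scaling, the Myog count was 0.352, 0.349 and 0.677 of the Myod1 count at 28 months and 0.846 at 18 months. Without the 3′-most bin of either gene these ratios were 0.391, 0.193 and 0.982 at 28 months, against 1.00 at 18 months, so replicate 3 then stood beside the 18-month library.

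Myf6, the factor of mature fibres (ENSMUSG00000035923, chromosome 10, 107492853 to 107494737), had 4004, 5164 and 4075 counts at 28 months, against 4071 at 18 months. Its 59.9, 52.9 and 67.5 CPM at 28 months bracketed the 62.5 CPM at 18 months (exact 95% interval 60.6 to 64.5). The log2 difference of -0.06 ± 0.28 (SE; edgeR adjusted p 0.975) had the tightest interval of the family, from -0.77 to 0.65. Myf6 and Myf5 are neighbours on chromosome 10, 6719 bases apart by the annotation used here.

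Cdh15, the adhesion gene (ENSMUSG00000031962, chromosome 8, 122847966 to 122867397), had the widest gap between libraries among the abundant members. It drew 1359, 474 and 1133 counts in the 28-month libraries (replicates 1, 2 and 3) and 375 in the 18-month library. The levels were 20.3, 4.86 and 18.8 CPM at 28 months, against 5.76 CPM at 18 months (exact 95% interval 5.19 to 6.37). Replicates 1 and 3 stood well above the 18-month interval, while replicate 2 fell just below it, so the groups overlapped. The log2 difference was 1.35 ± 0.87 (SE; 95% interval -0.87 to 3.56; edgeR adjusted p 0.859). Without replicate 2 it was 1.78 with an edgeR adjusted p of 0.0143, and Cdh15 was called, beside 1137 of 15376 genes called higher at 28 months in that fit (7.39%). Over the other alternatives the adjusted p ran from 0.822 to 1.00. Against Myf6 in the same library the Cdh15 count was 0.339, 0.0918 and 0.278 of the Myf6 count at 28 months and 0.0921 at 18 months.

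Fast fibre genes divided the libraries in the same way. The 11 listed, which encode fast contractile and energy proteins, summed at 28 months to 229565, 110165 and 233216 CPM (replicates 1, 2 and 3) and at 18 months to 131131 CPM. Their median log2 difference was 0.42 with all 4 libraries and 0.75 without replicate 2, where 7 of 11 were called higher, beside 7.39% of all genes. Itga7, the laminin receptor of satellite cells and fibres, differed from that pattern: it had 70.9 CPM in replicate 2, above the 50.8 CPM at 18 months, and 107 CPM or more in replicates 1 and 3. Its log2 difference was 0.94 ± 0.39 (SE; edgeR adjusted p 0.859), and 1.14 with an edgeR adjusted p of 0.0160 without replicate 2. From the 3′-most bin alone it was 0.30. The part of fibre content in the levels of Cdh15 and Itga7 was not tested.

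**Figure D2:**
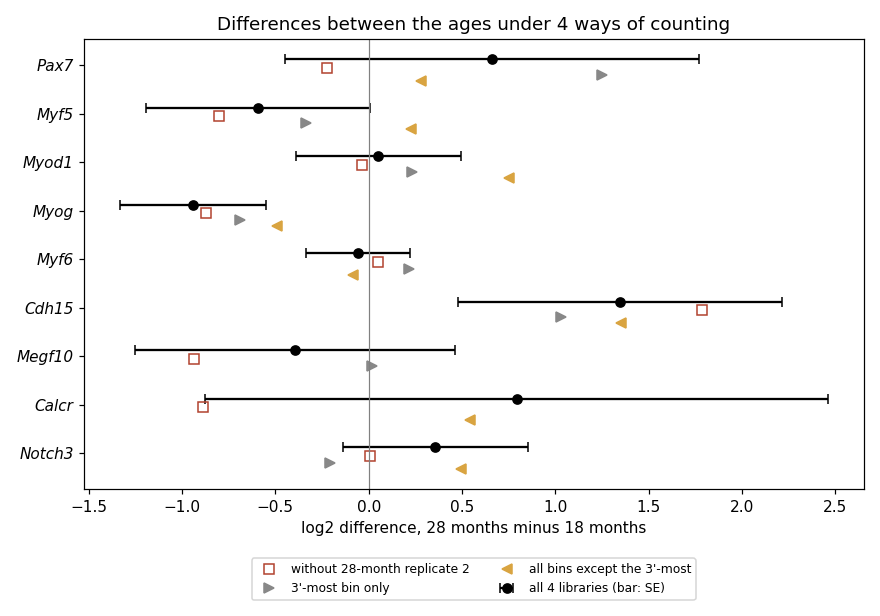
Log2 difference between the ages, 28 months minus 18 months, for each gene. Black points use all 4 libraries with SE bars, open squares leave out 28-month replicate 2, and triangles count the 3′-most bin alone or all bins except it, where these reached the count minimum. Pax7, Calcr, Myod1 and Myf6 change side without replicate 2, Myod1 and Myf6 with small differences in either fit. Cdh15 and Myog keep theirs in each setting drawn.

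The 3′-most bin took more of the counts at 18 months in most of the better covered members. Its share at 18 months lay above all 28-month shares in Myf5, Myod1, Myf6, Cdh15 and Notch3, which is 5 of the 9, beside 65.4% of 13346 genes, a share near that of the whole table. In 1, Pax7, it lay below all of them, beside 3.74% of genes. In Myf6 the share was 43.0, 43.7 and 41.6% at 28 months and 51.1% at 18 months (exact 95% binomial interval 49.5 to 52.6). Cdh15 had 16.9, 16.7 and 19.0% at 28 months and 31.7% at 18 months (27.0 to 36.7). In Notch3 it was 21.4, 15.3 and 16.2% at 28 months and 36.7% at 18 months (31.9 to 41.7), and in Myod1 61.1, 63.1 and 70.4% against 81.5% (76.5 to 85.8). Myog differed from these, with 56.8, 79.7 and 57.0% at 28 months and 78.1% at 18 months, so replicate 2 matched the 18-month library. Pax7 and Megf10, with few counts, had 76.7% or more in that bin in each 28-month library, and 76.0 and 100% at 18 months. Calcr had 0 counts there.

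**Figure D3:**
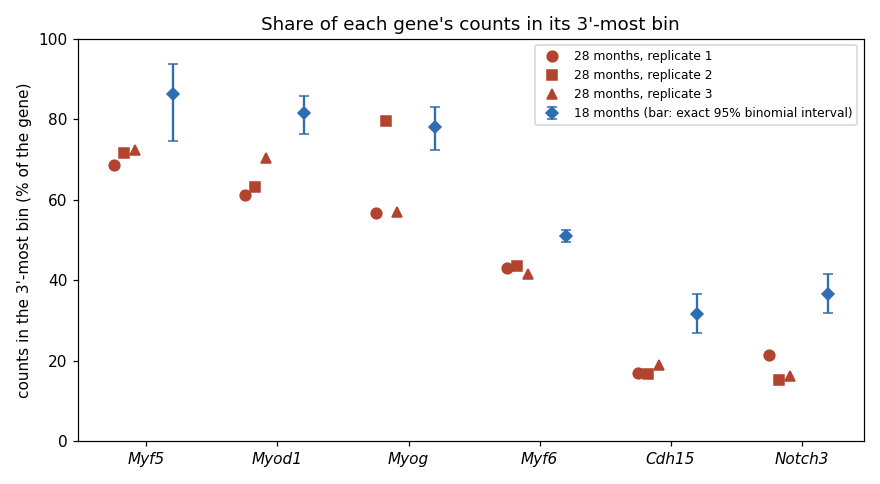
Percentage of each gene's counts that fell in the bin nearest its 3′ end, for Myf5, Myod1, Myog, Myf6, Cdh15 and Notch3. Red symbols are the 28-month replicates and blue diamonds the 18-month library with its exact 95% binomial interval. In 5 of the 6 genes the 18-month value is above all 28-month values, and in Myog it lies just below replicate 2.

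Exon usage, the question the sequencing was planned for, was tested in the 5 members with several bins at a mean of 10 counts or more. None of Myod1, Myog, Myf6, Cdh15 and Notch3 was called by the edgeR Simes test per gene, beside 389 of 11000 genes (3.54%), and their adjusted p ran from 0.963 to 1.00. None of their single bins passed either, beside 525 of 143485 bins (0.366%). Each gene is described by its bin of smallest p, in percent of the counts of its tested bins. In Notch3 this was bin 4, with 15, 38 and 22 counts at 28 months, against 2 at 18 months, or 4.88 ± 1.71% (SD, n = 3) against 0.538% (exact 95% interval 0.0652 to 1.93; edgeR adjusted p of the bin 0.775). In Myod1 it was the 5′ exon, with 34.3 ± 4.71% at 28 months and 18.0% at 18 months (13.7 to 22.9). Cdh15 showed its 3′-most bin 14, at 17.6 ± 1.31% at 28 months and 31.7% at 18 months. The middle exon, bin 2, was the one in Myf6, at 20.7 ± 0.279% at 28 months against 15.1% at 18 months, and in Myog, at 12.4 ± 7.01% against 6.20%. Without 28-month replicate 2 Notch3 was called at an edgeR adjusted p of 0.0368, as were 3299 of 11000 genes (30.0%). None was called without replicate 1 or replicate 3 (2.05% and 1.49% of genes), with a bin minimum of 5 or 20 counts (3.81% and 3.16%), by the gene-level F-test (30.7%) or by limma voom (16.0%). For Notch3 the files and the annotation used here divide the gene into different numbers of bins, 33 and 38, so its bins are given by number alone.

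Along Cdh15 the gap between 28-month replicates 1 and 3 and the 18-month library was seen in each bin but varied in size. Bin 4 (chromosome 8, 122859238 to 122859382, a coding exon) had 93, 37 and 68 counts at 28 months, against 12 at 18 months. Bin 14, the last exon (122866823 to 122867397), had 230, 79 and 215 counts at 28 months, against 119 at 18 months. Bin 1, which holds the RefSeq start of the promoter window above, had 5, 2 and 9 counts at 28 months, against 0 at 18 months, where 0 allows up to 3 counts. The log2 difference of Cdh15 was 1.03 from the 3′-most bin alone and 1.35 from the other bins, so its direction did not depend on that bin. A same-strand gene, Gm20388, overlaps Cdh15 in the annotation, and the deposited Cdh15 bins are not joined with it. Its part in the Cdh15 counts was not tested.

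**Figure D4:**
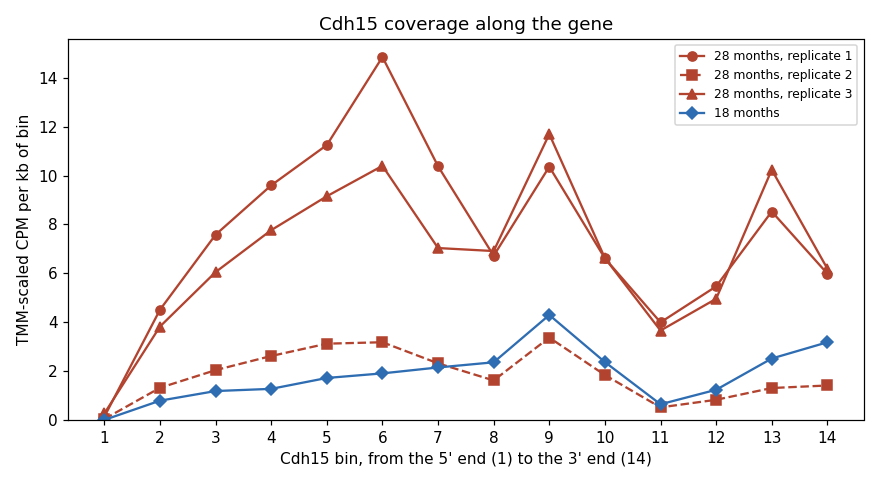
Coverage of Cdh15 by bin, from the 5′ end to the 3′ end, in TMM-scaled CPM per kilobase of bin. Solid red lines are 28-month replicates 1 and 3, the dashed red line is replicate 2, and the blue line is the 18-month library. Replicates 1 and 3 lie above the other libraries in every bin.

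Around these 9 genes, the wider satellite cell and Notch lists had no gene called either. Of 20 other satellite cell genes, all tested, 0 were called, 10 were positive and 10 negative, and the median log2 difference was -0.01. Genes of the list called without replicate 2 included Itga7, higher, and Sdc4, a heparan sulfate co-receptor, lower at 28 months (7.39% and 4.35% of all genes). Cxcr4, a chemokine receptor, had 1.95 ± 0.153 CPM at 28 months (SD, n = 3) and 0.906 at 18 months. Pax3, the sister factor of Pax7, had 0.794, 0.349 and 0.812 CPM at 28 months, against 0.860 at 18 months. Of 18 Notch pathway genes, which share Heyl with the list before, 0 were called and the median was 0.10, with 11 positive and 7 negative. Lfng, which modifies Notch receptors with sugars, had 4.21, 5.36 and 4.16 CPM at 28 months, against 1.61 at 18 months, a log2 difference of 1.50 ± 0.41 (SE; edgeR unadjusted p 0.0142, adjusted 0.859). Rbpj, the DNA-binding partner of activated Notch, had 15.8, 16.5 and 16.7 CPM at 28 months, against 26.7 at 18 months, a difference of -0.71 ± 0.23 (adjusted 0.859) that turned to 0.12 without the 3′-most bin. The ligand gene Jag2 had 12.3, 6.13 and 11.2 CPM at 28 months, against 5.11 at 18 months, and the receptor gene Notch1 had 6.21, 16.2 and 7.80 CPM at 28 months, against 7.31 at 18 months. Without replicate 2 the fit called 4 of the 18, Jag2 and Lfng higher and Rbpj and Hes1, a Notch target, lower at 28 months, beside 7.39% of all genes called higher and 4.35% called lower.

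The partners and inhibitors of the myogenic factors (12 genes, all tested) had 0 called and a median log2 difference of -0.18, with 4 positive and 8 negative. Msc, a repressor related to Myod1, had 27, 88 and 29 counts at 28 months, against 9 at 18 months. Tcf3, which encodes the E proteins that pair with Myod1, had 12.5, 7.61 and 13.9 CPM at 28 months, against 7.42 at 18 months, and was called higher without replicate 2 (edgeR adjusted p 0.0457; 7.39% of all genes). Id3, an inhibitor that binds E proteins, had 16.2, 15.3 and 14.7 CPM at 28 months, against 10.5 at 18 months, and Mef2a, a co-factor, had 165, 137 and 162 CPM against 225. Calcitonin receptor signalling genes (10 tested) had 0 called, 5 positive and 5 negative.

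Genes of fusing myoblasts and regenerating fibres (10 of 12 tested) had 0 called, 5 positive and 5 negative, and a median log2 difference of 0.07. Actc1, the cardiac actin that young and regenerating fibres make, had 51.4, 34.6 and 79.8 CPM at 28 months, against 174 at 18 months, a difference of -1.66 ± 0.47 (SE; edgeR unadjusted p 0.0154, adjusted 0.859), and the groups did not overlap. Without replicate 2 the edgeR fit called Actc1 (log2 difference -1.38, adjusted p 0.0294) and the adhesion gene Jam2 lower and Chrna1 higher at 28 months, beside 4.35% and 7.39% of all genes. Mymk, the fusion protein myomaker, had 12, 17 and 29 counts at 28 months, against 1 at 18 months. Myh3, the embryonic myosin, had 2.13, 0.912 and 2.85 CPM at 28 months, against 1.54 at 18 months, and Myh8, the perinatal myosin, had 51.6, 22.1 and 57.8 CPM against 39.5.

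The denervation list, which holds Myog itself, had 15 of 16 genes tested, 0 called, 8 positive and 7 negative, and a median of 0.13. Runx1, a factor induced in denervated fibres, had 3.53, 1.57 and 3.59 CPM at 28 months, against 7.74 at 18 months, lower at 28 months in estimate as Myog was (log2 difference -1.42 ± 0.53, SE; edgeR adjusted p 0.859). Chrna1, an acetylcholine receptor subunit, had 29.1, 10.1 and 26.1 CPM at 28 months, against 15.0 at 18 months. Without replicate 2 the edgeR fit called 3 of the list higher at 28 months, Chrna1 (adjusted p 0.0277), the receptor subunit gene Chrnb1 and Sln, a calcium pump inhibitor, and 1 lower, Runx1 (adjusted p 0.0343), beside 7.39% and 4.35% of all genes. Chrng, the fetal subunit, had 2, 0 and 5 counts at 28 months, against 0 at 18 months, below the count minimum.

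Cell cycle genes (10, all tested) had 0 called and 9 positive, beside 54.4% positive of all tested genes, with a median of 0.92. The libraries did not share this lean. In 2 of the 10 every older library exceeded the younger one, and in 1 every older library fell short of it. Of all tested genes 25.4% and 26.4% did so. The list summed to 33.9, 30.7 and 49.8 CPM at 28 months (replicates 1, 2 and 3), against 37.9 at 18 months. Mki67, a marker of dividing cells, stood at 0.225, 0.800 and 6.15 CPM in the 28-month libraries and 1.20 at 18 months, so replicate 3 alone exceeded 18 months. The replication gene Mcm5 had 2.44, 1.85 and 3.10 CPM at 28 months, against 1.06 at 18 months. Ccnd1, the cyclin of early division, went the other way, with 4.80 ± 1.60 CPM at 28 months (SD, n = 3) and 13.1 at 18 months, a log2 difference of -1.45 ± 0.42 (SE; edgeR unadjusted p 0.0177, adjusted 0.859). It was the cell cycle gene called without replicate 2 (log2 difference -1.71, edgeR adjusted p 0.0180; 4.35% of all genes were called lower).

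Marker lists of other cells leaned to a side in estimate, while 54.4% of all tested genes were positive. All 12 macrophage genes were positive (median 1.13, summed level 244, 359 and 410 CPM at 28 months, against 187 at 18 months). All 12 Schwann cell genes were negative (median -1.31, summed level at most 211 CPM at 28 months, against 371 at 18 months). None of either list was called with all libraries, and without replicate 2 Cd68, a lysosomal protein of macrophages, was called higher and 7 of 12 Schwann cell genes lower (7.39% and 4.35% of all genes). Their part in the results above was not tested. The extraction text of the labels describes skin epidermis. Of 9 keratinocyte genes found, 7 fell below the count minimum. Krt5 and Krt15 had 0 counts in every library, which allows up to 3 counts in each. Krt10 and Trp63 passed the minimum. The list summed to 15.6, 12.9 and 18.3 CPM at 28 months, against 16.3 at 18 months. Of 10 genes of brain astrocytes and cerebellar granule cells, which also express Megf10 or Cdh15, 5 fell below the minimum, with Gabra6 at 0 throughout. Of the 5 tested 4 were positive, and the list summed to 143, 111 and 120 CPM at 28 months, against 73.8 at 18 months. Their part in the results was not tested. None was called with all libraries, and Aldh1l1, an astrocyte enzyme, and Zic1, a factor of granule cells, were called higher without replicate 2 (7.39% of all genes).

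**Figure D5:**
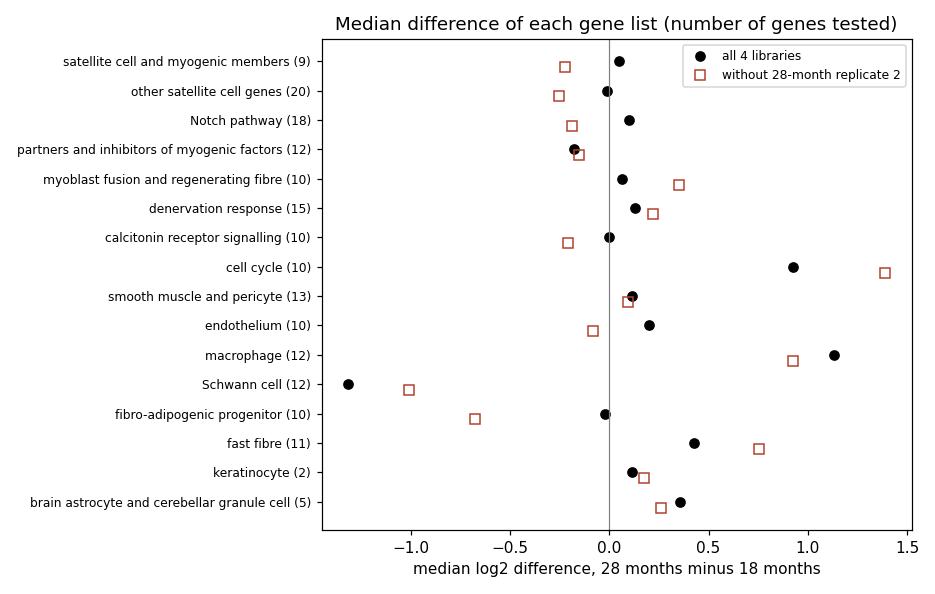
Median log2 difference, 28 months minus 18 months, of each gene list, with the number of genes tested in brackets. Filled points use all 4 libraries and open squares leave out 28-month replicate 2. The satellite cell and myogenic genes lie at 0.05 and -0.22, the macrophage and Schwann cell lists at 1.13 and -1.31 with all libraries.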

How the data were processed

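RNA-seq counts from 4 libraries were used. Per the submitters' processing notes, the tools were bcl2fastq 1.8.3 (base calls to reads) and TopHat2 2.0.4 (alignment), on build GRCm38. Counter, annotation release and strandedness: not given in the sources used here. As deposited, the values are unnormalized whole counts, 1 per exon bin. Entries naming no gene, 3.36 to 5.20% of a table, were left out. A fragment that spans several bins may count in each, so intervals treat counts as independent and cover counting error only.

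Bins (374286) were summed per gene. Of the gene units, 949 join several genes, among them those of the listed genes Egfl7, Pdgfra, Top2a, Neurod1 and Ramp2. Genes averaging 10 or more counts were tested with the edgeR 4.0.16 quasi-likelihood test after TMM scaling, and adjusted over all units. CPM are TMM-scaled. Residual degrees of freedom were 2, set by the 28-month libraries, with 3.17 prior. These are of the fit with all 4 libraries, and fits with a library left out have fewer residual degrees of freedom. The single 18-month library has no spread of its own and is taken to vary as those do. Exon usage used edgeR diffSpliceDGE with Simes p-values. DESeq2 1.42.0 and limma 3.58.1 gave alternatives, in R 4.3.3, and figures used matplotlib 3.10.9. Lengths, positions and coding windows came from GENCODE M21 (GRCm38), whose bins matched the files in number for 7 of 9 members. Promoters came from RefSeq.

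Members and the 16 lists were chosen with earlier results of these data known. Beyond the members, named genes were fixed by name or had the smallest p of their list, and not every gene so named is given. Hes1, Sdc4, Chrnb1, Sln, Jam2, Col1a1, Col3a1, Des and Gabra6 were named after their values were seen. The analysis of the 3′-most bin was also added after the data were seen.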

Additional observations from a re-analysis of the deposited data

How the results depend on the processing

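No paired analysis was possible because the 18-month group has 1 library with no replicate number. It could not be left out either. For all genes the number called was 0 with DESeq2 size factors, with library sizes that omit mitochondrial and the 20 most abundant genes, with no count minimum, with a minimum of 50, and with either choice of bins. It was 31 with the DESeq2 Wald test and 1 to 1806 when each 28-month library was left out. Of the 9 members 0 to 1 were called over those 3 fits, and their median log2 difference ran from -0.22 to 0.26 and was 0.39 without the 3′-most bins. With 1 library left out, the log2 difference ran from -0.22 to 1.07 for Pax7, -0.075 to 0.26 for Myod1, -0.15 to 0.051 for Myf6, -0.89 to 1.31 for Calcr, -0.037 to 0.71 for Notch1, -0.019 to 0.72 for Myh3, -0.10 to 0.49 for Myh8, -0.33 to 0.35 for Pdgfrb and -1.21 to 1.53 for Mki67. With the 3′-most bin alone the sign turned for Myf6 (0.22), Megf10 (0.017), Notch3 (-0.21) and Acta2 (-0.20). Without that bin it turned for Myf5 (0.23), Rbpj (0.12), Myh8 (-0.11) and Pdgfrb (-0.14). Each of these bin choices was scaled to its own counts, so the signs are not on the scale of the main fit. The cause of the turned signs was not tested. Genes called for exon usage numbered 3375 by the gene F-test, 1765 by limma voom and 164 to 3299 with 1 library left out, and members called 0 to 1. Pax7, Megf10 and Calcr have too few counts for any exon usage test, Myf5 was tested at a bin minimum of 5 and not called, and none of these 4 reached a mean of 50 counts.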
